A study of Mus musculus with 18 samples.

Results

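SB431542 was added together with the cytokine TGF-b1 to mouse primary preadipocytes, and this set was compared gene by gene with cells given TGF-b1 alone. The comparison used 6 of the 18 libraries of the series, 3 labelled CD_TGF-b/SB431542 and 3 labelled CD_TGF-b, which were all the libraries with these 2 labels. All 6 came from wild-type (WT) cells with the label Control Diet, given here as CD. The cells are primary cultures of the fibroblast-like cells of a white fat depot (eWAT, the usual short form for epididymal fat) from which fat cells form. Another 3 CD libraries without added cytokine (mock) are given beside the values as a description and were not tested. These mock libraries and 3 libraries labelled HFD_mock (high-fat diet) also entered the fit. There they shared in the gene filter, the scaling and the estimate of spread, and no HFD value is given. No library with SB431542 in the absence of TGF-b1 was analysed here, and the doses, the times and the origin of the replicates (animals or dishes) are not stated in the labels.

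TGF-b ligands are released from latent complexes in the matrix and bind a type II receptor kinase (Tgfbr2), which switches on a type I kinase (Tgfbr1, also called ALK5). The type I kinase phosphorylates Smad2 and Smad3, which move to the nucleus with Smad4 and act on matrix, contractile and feedback genes. SB431542 is a small molecule that occupies the ATP site of Tgfbr1 and of the closely related activin and nodal receptors Acvr1b and Acvr1c, and acts little on the type I receptors of bone morphogenetic proteins (BMP). In adipose tissue, TGF-b is known for driving fibroblast-like progenitors toward matrix production and for holding back fat cell formation.

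Expression is given in CPM, the counts of a gene per 1000000 counts of its library after scaling (mean ± SD, n = 3 libraries), and changes are log2 differences, SB431542 with TGF-b1 minus TGF-b1 alone, ± SE. Total counts per library ranged from 12235295 to 16130948 with TGF-b1 and from 11811028 to 12599425 with SB431542 added. Libraries of 1 group were nearly as close as counting error allows: chi-square per degree of freedom was 1.15 to 1.20 over the 9 replicate pairs of these 3 groups. Positions of genes refer to build mm10 and span their RefSeq transcripts. Since the labels do not say that replicates were independent, p-values reflect library-to-library spread alone, which may be technical. The 10 most abundant genes took 8.24% to 8.26% of the counts with TGF-b1 and 4.41% to 4.44% with the inhibitor. Rn45s, the ribosomal RNA precursor, was named after its values were seen: it stood at 8499 ± 34.8 CPM with TGF-b1, 5862 ± 18.5 CPM with the inhibitor and 4778 ± 6.76 CPM in mock.

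The labelled cell type was checked by its markers. Pdgfra and Pdgfrb, receptors of fibroblastic progenitors, stood at 150.3 and 1001 CPM with TGF-b1 and at 464 and 783 CPM with SB431542. Other markers on the same list were low with TGF-b1: Cd34 at 14.5, Ly6a at 4.39, Dpp4 at 15.3 and Lum at 16.9 CPM. With the inhibitor these stood at 224, 299, 186 and 149 CPM. Dcn stood at 165 and 1678 CPM and Col1a1 at 14769 and 2066.5 CPM. Thy1 and Pi16, also on the list, are not printed here. Genes of other cell types were present as well. The summed CPM of 16 macrophage markers ranged from 714 to 735 with TGF-b1 and from 1309 to 1346 with the inhibitor, with 14 markers called higher and 1 lower. For 12 endothelial markers the sums ranged from 256 to 258 and from 1018 to 1049, with 10 higher and 2 lower. For 12 mesothelial markers they ranged from 732 to 748 and from 2372 to 2379.5, with 9 higher and 2 lower among the 11 tested. For 9 pericyte and smooth muscle markers they ranged from 708 to 710.4 and from 869 to 896, with 6 higher, among them Notch3, and 3 lower, among them Cspg4. None of 9 lymphocyte markers was abundant enough to be tested: 7, among them Cd3e and Nkg7, were not in the table, and the other 2 summed to at most 0.736 CPM. For 6 Schwann cell and neural markers the sums ranged from 41.5 to 48.0 and from 63.3 to 68.1, with both of the 2 tested higher. For 5 epithelial markers the sums were lower with the inhibitor, from 17.5 to 19.9 against 2.35 to 3.46, and the 1 tested was lower (-3.33). In bulk RNA, fewer cells of a type and less RNA per cell cannot be told apart.

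Of 14078 genes tested, 5835 (41.4%) were called higher with SB431542 at an adjusted p under 0.05 and 5388 (38.3%) lower, by edgeR's quasi-likelihood test with Benjamini-Hochberg adjustment. A change of at least 2-fold was added to the call for 2542 higher genes (18.1%) and 1078 lower genes (7.66%), and counts of list members below are read against these 4 shares. The median change of all genes was 0.04. Scaling by total counts in place of TMM moved it to 0.29 and raised the share of higher genes among all called from 52% to 70%, with 8047 genes higher and 3446 lower. Changes near 0 thus depend on the scaling, and both medians are given for the lists below whose median changes sign. The plot of all genes shows changes of both directions at low and at high expression, and the plot of gene lists shows where they gathered.

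**Figure D1:**
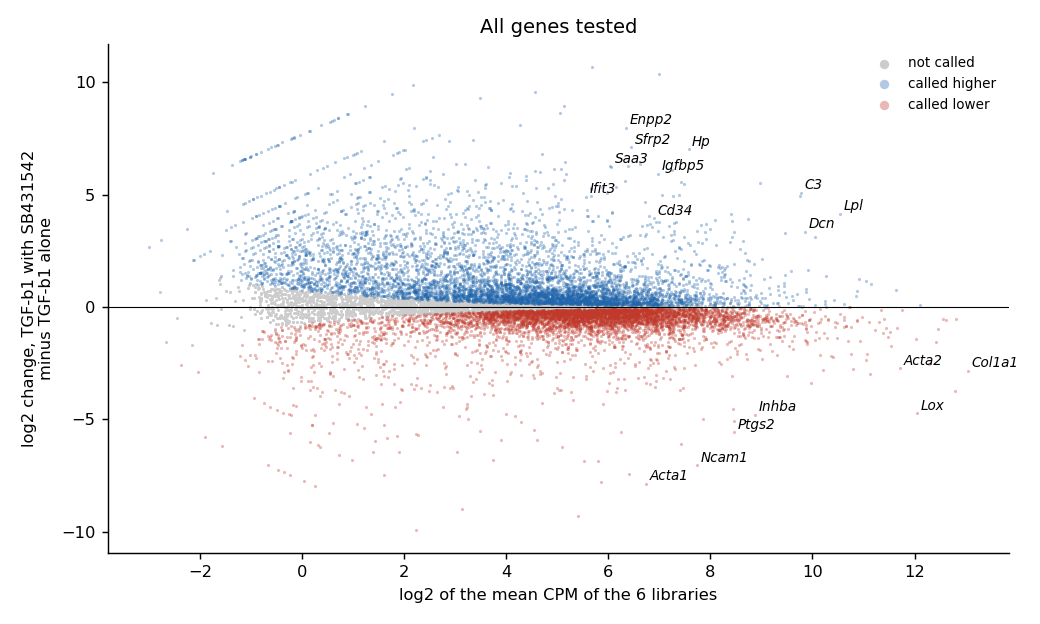
Log2 change with SB431542 added to TGF-b1 (vertical axis) against the log2 of the mean CPM of the 6 libraries (horizontal axis) for 14078 genes, with genes called higher in blue, lower in red and not called in grey. Diagonal streaks at low expression are genes with 0 or very few counts in 1 group, whose fitted changes are no measure of size. The genes with a printed name run from -7.89 for Acta1 to 7.97 for Enpp2, and genes with fewer than 10 counts in the lower group carry no name.

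**Figure D2:**
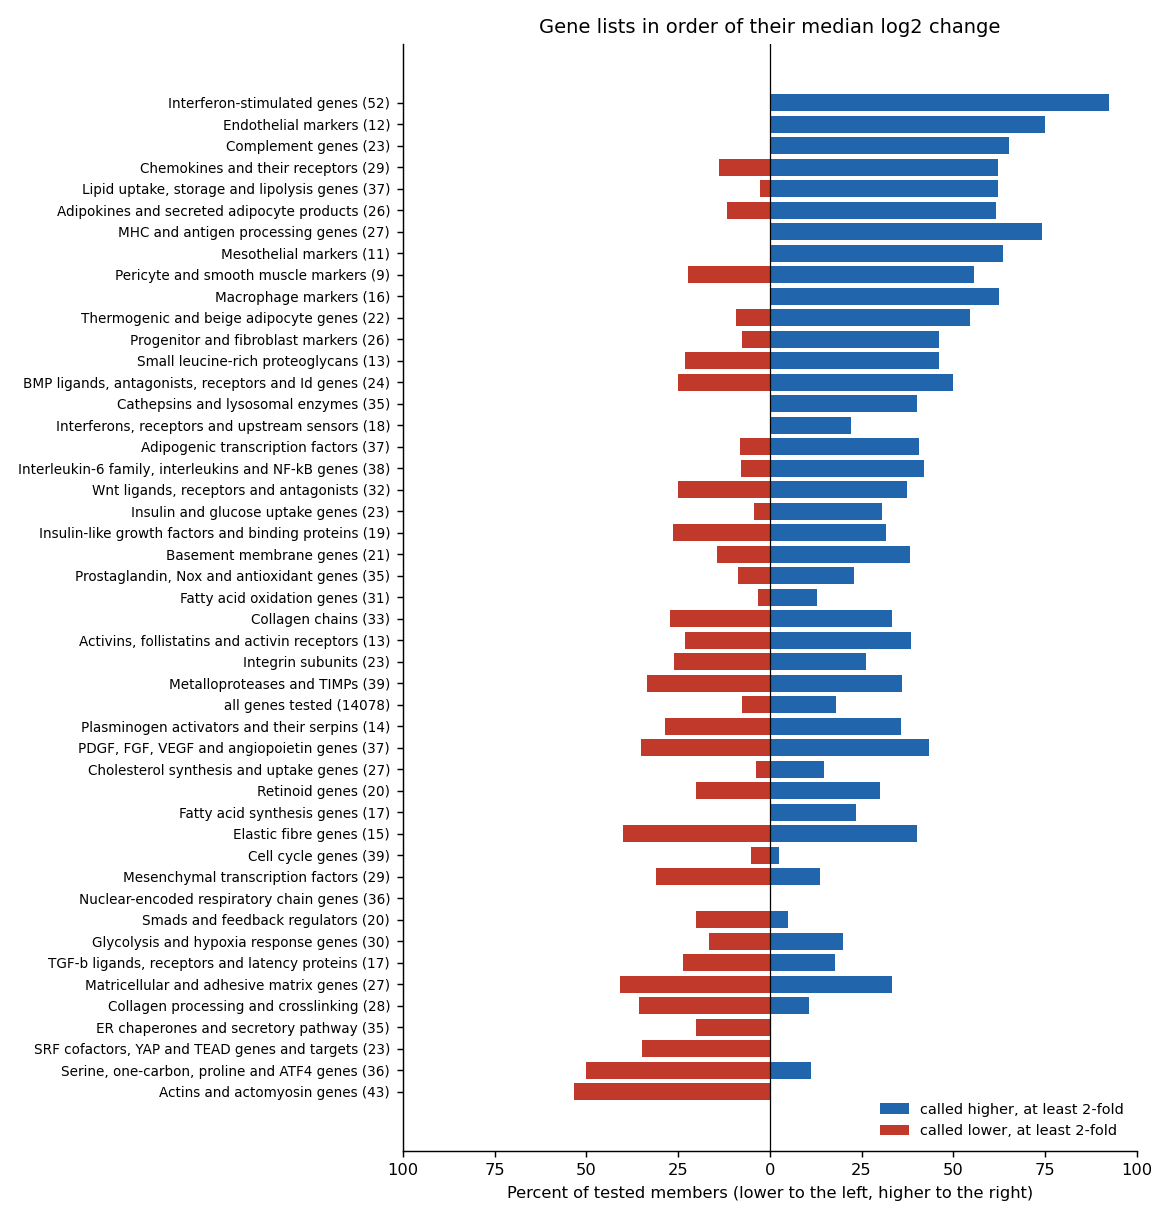
Percent of the tested members of each gene list that were called and changed at least 2-fold (red, lower, to the left, and blue, higher, to the right), ordered by the list's median log2 change, with the number of tested members in brackets and all genes tested as a line of their own. The interferon-stimulated genes stand at the top with 48 of 52 members higher, and the actins and actomyosin genes at the bottom with 23 of 43 lower.

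The TGF-b pathway itself was changed at several levels. Of 17 tested ligands, receptors and latency proteins, 7 rose and 10 fell, 3 and 4 of them by at least 2-fold, with a median of -0.49. Among the ligands, Tgfb1 was lower in every SB431542 library. It stood at 198, 209 and 199 CPM with TGF-b1 and at 97.1, 101 and 92.9 CPM with the inhibitor, against 107 CPM in mock, a change of -1.06 ± 0.03. The libraries of both groups did not overlap, which held for 80.15% of all genes tested. Tgfb3 changed by -0.65 ± 0.02, to 215 ± 2.98 CPM, and Tgfb2 by -0.49 ± 0.044, to 49.3 ± 0.889 CPM.

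The latent TGF-b binding protein family and proteins that hold or release the latent ligand differed in direction. Ltbp2 fell from 2079 ± 13.1 to 297 ± 3.86 CPM (-2.81 ± 0.013), while Ltbp4 rose from 22.8 to 27.3 CPM. Ltbp2 is a microfibril protein listed here for its family and not for holding the latent ligand. Ltbp1 stood at 116 and 98.9 CPM (-0.23 ± 0.032), and its direction turned to 0.024 with total-count scaling and to 0.60 when only the largest transcript of each gene was counted. Lrrc32 (GARP), which tethers latent TGF-b at the cell surface, fell from 1417 to 478 CPM, and its relative Nrros rose from 3.52 to 32.3 CPM. Nrros is known from macrophages and microglia, and the macrophage markers given above were higher in the same libraries; their part in this rise was not tested. The integrin subunit Itgb8, which activates latent TGF-b together with Itgav, stood at 0.767, 0.443 and 0.405 CPM with TGF-b1 and 23.4, 26 and 20.8 CPM with SB431542, against 18.7 CPM in mock. This was a rise of 5.45 ± 0.33 (adjusted p = 5.03e-29, edgeR quasi-likelihood test). Its partner Itgav fell by 1.18 on the log2 scale.

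The receptors did not move together. Tgfbr1, the kinase that SB431542 blocks, fell from 132, 125 and 136 CPM to 75.8, 76.1 and 77.5 CPM (-0.78 ± 0.034), against 144 CPM in mock. Tgfbr2 rose from 239 ± 5.74 to 325 ± 2.17 CPM (0.44 ± 0.021). The coreceptor Tgfbr3 (betaglycan; chromosome 5, 107106567 to 107289630, minus strand), which presents TGF-b2 and inhibin, rose as well. It went from 62.1, 63.2 and 63.1 CPM to 348, 350.1 and 348 CPM, against 269 CPM in mock (2.47 ± 0.03). Eng and Acvrl1, the endothelial coreceptor and type I receptor, rose by 0.18 and 0.19 on the log2 scale, beside endothelial markers that rose as given above; the part of these cells was not tested. With the largest transcript of each gene alone, Acvrl1 was no longer called, at 0.009 (adjusted p = 0.958, edgeR test).

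Among 20 Smads and feedback regulators, 11 were called lower and 6 higher, and 4 and 1 of them by at least 2-fold. The list's median was -0.18 and became 0.08 when libraries were scaled by total counts, so the list as a whole has no direction. The genes that TGF-b induces to restrain its own signal were the lowest. Pmepa1 (chromosome 2, 173224465 to 173276534, minus strand), which keeps Smad2 and Smad3 from the receptor, stood at 666, 669 and 662 CPM with TGF-b1 and 27.7, 28.6 and 30.4 CPM with SB431542, below the 196 CPM of mock (-4.53 ± 0.04, 23-fold lower). Ldlrad4, a relative of Pmepa1 with the same role, fell from 44.1 ± 1.38 to 6.18 ± 1.14 CPM (-2.84 ± 0.1). Skil (SnoN), a corepressor of Smads, fell from 158 ± 3.21 to 27 ± 0.968 CPM (-2.55 ± 0.048).

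Smad7, the inhibitory Smad that blocks the type I receptor, fell from 146, 145 and 145 CPM to 54.9, 55.8 and 58.6 CPM, against 88.8 CPM in mock (-1.36 ± 0.036). Smad6, the inhibitory Smad linked to BMP signalling, moved the other way, from 71.6 ± 2.53 to 115 ± 1.1 CPM (0.68 ± 0.036). Smurf2, a ubiquitin ligase for receptors and Smads, fell by 0.91 on the log2 scale. Of the signal-carrying Smads, Smad3 rose from 57.1, 61 and 63.6 CPM to 125, 129 and 122 CPM, against 136 CPM in mock (1.04 ± 0.038). Smad2 was not called, with 60.9 ± 1.77 and 63.3 ± 4.09 CPM (adjusted p = 0.267 in the edgeR test), but was called higher with total-count scaling, at 0.31. The common partner Smad4 changed by -0.09 ± 0.032 (0.16 with total-count scaling). Tgif2 and Zfyve9 were the other 2 members without a call, at -0.07 ± 0.088 and -0.05 ± 0.06. With total-count scaling both were called higher, at 0.19 and 0.21. Smad1, Smad5 and Smad9, which carry BMP signals, changed by 0.27, 0.23 and 0.36, and Smad5 was not called with the largest transcript alone (0.18).

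Activin genes, whose receptors SB431542 also blocks, changed in opposite directions. Of 13 tested members, 7 rose and 5 fell. Inhba (chromosome 13, 16011851 to 16031610, plus strand), which encodes the subunit of activin A, stood at 908, 909.8 and 905 CPM with TGF-b1 and 31.4, 34 and 31.4 CPM with the inhibitor, against 129.5, 127 and 123 CPM in mock (-4.81 ± 0.036, 28.1-fold lower). Every SB431542 library was below every mock library. Inhbb, the subunit of activin B, went the other way, from 49.3, 49.1 and 51 CPM to 335, 340.2 and 339 CPM, with 339.9 CPM in mock (2.76 ± 0.032). Fstl3, a secreted activin antagonist, fell from 119 ± 2.86 to 11.2 ± 0.775 CPM (-3.40 ± 0.071; adjusted p = 8.57e-42, edgeR test), while Fst, the better known follistatin, changed by 0.11 ± 0.036 and was not called with the largest transcript alone (0.045). The type I activin receptor Acvr1b rose from 18.6 ± 2.61 to 51.4 ± 1.27 CPM (1.47 ± 0.069) and the type II receptor Acvr2a fell by 0.53 on the log2 scale. Acvr1c (ALK7) had 0 counts in the TGF-b1 libraries and a mean of 1.26 CPM with the inhibitor. Gdf15, a stress-induced member of the family, rose from 17.6 ± 0.609 to 91.3 ± 2.65 CPM (2.38 ± 0.066).

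BMP signals run through other type I receptors, and Id genes are their usual readout. All 4 Id genes, which encode inhibitors of basic helix-loop-helix factors, were higher. Id1 stood at 58.9, 58.5 and 56.8 CPM with TGF-b1 and 125, 128 and 135 CPM with SB431542, against 86.4 CPM in mock (1.16 ± 0.038). Id2 changed by 1.15 ± 0.044, Id3 by 0.61 ± 0.022 and Id4 by 1.23 ± 0.067. The BMP antagonists differed in direction: Grem1 fell from 16.1 ± 0.454 to 2.66 ± 0.652 CPM (-2.59 ± 0.15), while Nog rose from 2.61 to 8.58 CPM and Chrdl1 from 0.747 to 11.1 CPM.

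The ligands were split in the same way. Gdf6, a BMP ligand, fell from 314 ± 2.69 to 23.8 ± 3.27 CPM (-3.71 ± 0.051), whereas Bmp4 rose from 7.4 ± 0.423 to 24.1 ± 1.53 CPM (1.70 ± 0.098) and Bmp2 from 2.82 ± 0.393 to 32.4 ± 3.13 CPM (3.50 ± 0.15). Gdf10 (BMP3b) rose from 1.96, 2.57 and 2.29 CPM to 38.6, 38.9 and 39.8 CPM, against 37 CPM in mock (4.10 ± 0.15). The receptor Bmpr1b fell from 19.4 to 4.67 CPM, and Bmpr2 from 184 to 104 CPM. In all, 14 of 24 tested members of the BMP list rose and 9 fell, with a median of 0.90. The plot of pathway genes by library shows the separation of both treatments for the Id genes, Grem1, Gdf6, Bmp4, Bmp2 and Gdf10.

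**Figure D3:**
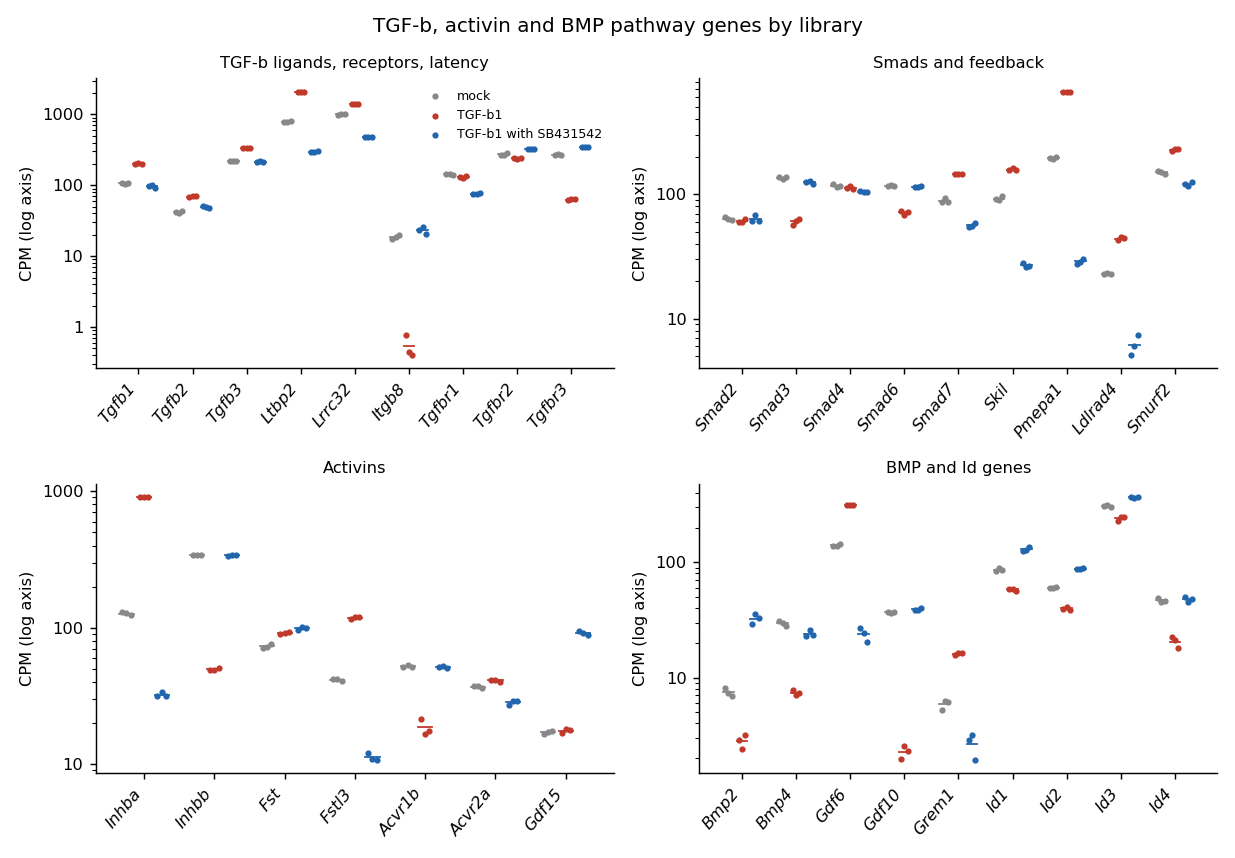
CPM (log axis) of genes of the TGF-b, activin and BMP pathways in each library of mock (grey), TGF-b1 (red) and TGF-b1 with SB431542 (blue), with a line at the mean of the 3 libraries. Inhba and Pmepa1 with SB431542 lie below mock as well as below TGF-b1, whereas Smad2 shows no separation between both treatments with TMM scaling.

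Collagen genes split by type. Of 33 tested chains, 17 rose and 13 fell, 11 and 9 by at least 2-fold. Col1a1 (chromosome 11, 94936224 to 94953043, plus strand), a chain of the main fibril-forming collagen, stood at 14764, 14794 and 14749 CPM with TGF-b1 and 2064, 2079 and 2056 CPM with SB431542, against 8930.1 CPM in mock (-2.84 ± 0.0065, 7.15-fold lower). All SB431542 libraries were also below the mock libraries. Its partner chain Col1a2 fell from 8203 ± 26.2 to 2799 ± 26.3 CPM (-1.55 ± 0.007). Col11a1, a chain of a minor fibrillar collagen, fell from 118, 112 and 118 CPM to 0.649, 0.368 and 0.538 CPM, against 5.26 CPM in mock (-7.78 ± 0.31; adjusted p = 5.55e-44, edgeR test). Col12a1, a fibril-associated collagen, fell from 1836 ± 12.4 to 174 ± 3.41 CPM (-3.40 ± 0.017).

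Other chains rose. Col3a1, a fibrillar collagen of soft tissue, went from 2354, 2346 and 2341 CPM to 3999, 4044 and 3996 CPM, against 5238 CPM in mock (0.77 ± 0.0078). Col6a1, a chain of the microfibrillar collagen VI that surrounds fat cells, rose from 61.9, 60.3 and 64.9 CPM to 641, 639.8 and 643 CPM, against 590.1 CPM in mock (3.36 ± 0.028, 10.2-fold). Col6a5 had 1 count over the TGF-b1 libraries and 22.4 CPM with the inhibitor. Col18a1, a basement membrane collagen, rose from 49.3 ± 2.47 to 295 ± 4.48 CPM (2.58 ± 0.037), while Col4a1 changed by -0.14 ± 0.009 (0.12 with total-count scaling).

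Genes that modify and crosslink collagen were mostly lower. Of 28, 20 fell, 10 of them by at least 2-fold, and 8 rose (median -0.62). Lox (chromosome 18, 52516060 to 52529868, minus strand), the enzyme that crosslinks collagen and elastin, stood at 8186, 8145 and 8126 CPM with TGF-b1 and 309, 308 and 298 CPM with the inhibitor, against 3365 CPM in mock (-4.74 ± 0.011, 26.7-fold lower). Its relative Loxl3 fell from 616 ± 3.02 to 72.5 ± 2.37 CPM (-3.09 ± 0.028). P4ha3, a prolyl hydroxylase subunit, changed by -3.70 ± 0.11, Tll1, a procollagen C-proteinase, by -4.15 ± 0.11, and the collagen chaperone Serpinh1 (HSP47) by -0.93 ± 0.0084. Adamts2 and Adamts14, which cut the amino-terminal propeptides, rose by 1.93 ± 0.018 and 1.33 ± 0.13.

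Matricellular and elastic fibre genes were divided as well. Of 27 matricellular and adhesive genes, 14 fell and 11 rose (median -0.57). Ccn2 (CTGF), a long-known TGF-b target, stood at 3978, 3972 and 3959 CPM with TGF-b1 and 497, 497 and 490.0 CPM with SB431542, against 1179 CPM in mock (-3.00 ± 0.01). Ccn4 (WISP1) fell from 687 ± 3.98 to 20.4 ± 0.691 CPM (-5.07 ± 0.045) and Cilp, a matrix protein of cartilage and fibrotic tissue, from 67.2 ± 3.01 to 0.888 ± 0.315 CPM (-6.23 ± 0.24). Thbs1, which can release latent TGF-b, fell from 8532 ± 57.7 to 1474 ± 24 CPM (-2.53 ± 0.0084). Against these, Tnxb (tenascin X) rose from 10.3 ± 0.853 to 322 ± 7.5 CPM (4.96 ± 0.075) and Sparcl1 (hevin) from 16.6 ± 1.79 to 357 ± 4.1 CPM (4.42 ± 0.06).

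Fibronectin, Fn1, stood at 4251, 4200.4 and 4262 CPM with TGF-b1 and 4533, 4556 and 4546 CPM with SB431542, both below the 7137 CPM of mock (0.10 ± 0.007). Its receptor subunit Itga5 behaved otherwise, with 1294, 1302 and 1302 CPM against 152, 161 and 154 CPM, and 376 CPM in mock (-3.06 ± 0.019, 8.36-fold lower). Itga11, a collagen-binding integrin subunit, fell from 448 ± 4.03 to 14.1 ± 0.732 CPM (-4.98 ± 0.058), and Itgb5 and Itgb1 changed by -1.81 ± 0.021 and -0.84 ± 0.0099. Of 23 integrin subunits, 9 fell and 11 rose.

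Elastic fibre genes comprised 8 lower and 7 higher members of 15. Mfap4, a microfibril protein, fell from 177, 169.6 and 162 CPM to 0.865, 1.4 and 0.615 CPM, against 29.2 CPM in mock (-7.44 ± 0.25). Fbln5 and Fbn1, which organise elastin and microfibrils, changed by -2.58 ± 0.035 and -1.53 ± 0.0095, while Efemp1 (fibulin 3) rose by 2.38 ± 0.022. The list's median was -0.05 and 0.20 with total-count scaling.

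Small leucine-rich proteoglycans, which coat collagen fibrils, were higher in 9 of 13 tested members and lower in 3. Decorin, Dcn, which also binds TGF-b, stood at 162, 169 and 163 CPM with TGF-b1 and 1678, 1680.4 and 1675 CPM with the inhibitor, above the 978 CPM of mock (3.35 ± 0.018). Lum (lumican) rose from 16.9 ± 1.28 to 149 ± 0.757 CPM (3.15 ± 0.058) and Prelp from 54.9 ± 1.01 to 401 ± 7.14 CPM (2.87 ± 0.033). Biglycan, Bgn, the close relative of decorin, fell from 4011 ± 6.06 to 1855 ± 2.43 CPM (-1.11 ± 0.0079), and asporin, Aspn, from 50.9 ± 2.66 to 22.9 ± 1.18 CPM.

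In the basement membrane list, 15 of 21 members rose and 5 fell. Lama1, a laminin alpha chain, fell from 30.9 ± 2.31 to 1.13 ± 0.39 CPM (-4.76 ± 0.22). Lamc3, a laminin gamma chain, rose from 7.97 ± 0.397 to 118 ± 4.88 CPM (3.89 ± 0.087), and the linker protein Nid2 from 192 ± 5.68 to 839 ± 13 CPM (2.13 ± 0.018).

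**Figure D4:**
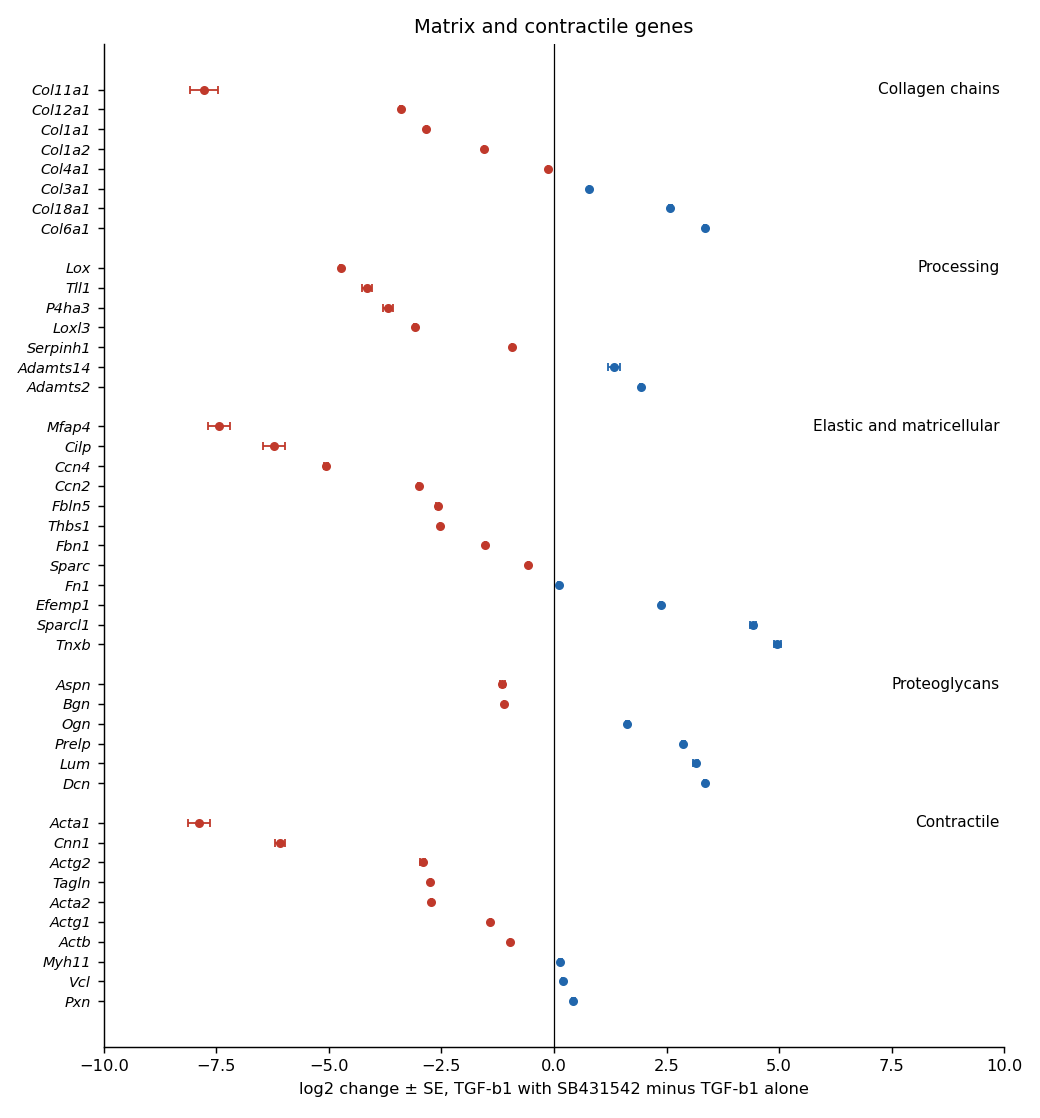
Log2 change ± SE with SB431542 added to TGF-b1 for genes of the matrix and of the contractile apparatus, with lower genes in red and higher genes in blue. Among the 8 collagen chains drawn, which leave out Col6a5 for its 1 count with TGF-b1, the values run from -7.78 for Col11a1 to 3.36 for Col6a1, and among the proteoglycans Bgn and Dcn lie on opposite sides of 0.

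Proteases and their inhibitors showed no common direction (19 of 39 metalloproteases and TIMPs higher, 16 lower). Mmp3 (stromelysin 1) rose from 8.78, 6.56 and 8.16 CPM to 354, 349.6 and 349 CPM, against 182 CPM in mock (5.48 ± 0.084), and Adamts15 from 2.76 ± 0.199 to 114 ± 2.46 CPM (5.35 ± 0.14). Timp3, a matrix-bound inhibitor, fell from 3541 ± 14.4 to 685 ± 7.59 CPM (-2.37 ± 0.012) and Mmp14, a membrane-bound collagenase, from 1805 ± 16.9 to 967 ± 13.8 CPM. The plasminogen list was divided, with 7 of 14 members higher and 7 lower. Plau and Plat, the urokinase-type and tissue-type activators, rose from 69.8 ± 2.74 to 353 ± 6.36 CPM (2.34 ± 0.033) and from 35 ± 0.48 to 154 ± 1.22 CPM (2.13 ± 0.044). Tfpi2, a secreted inhibitor of serine proteases, fell from 46.3 ± 4.15 to 11.5 ± 0.776 CPM (-2.01 ± 0.081).

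Contractile genes were the pathway list with the lowest median. Of 43 actins and actomyosin genes, 38 fell, 23 by at least 2-fold, 3 rose and 2 were not called, with a median of -1.15. Acta2 (chromosome 19, 34240336 to 34255374, minus strand), smooth muscle actin and the usual myofibroblast marker, stood at 5747, 5782 and 5922 CPM with TGF-b1 and 879, 883 and 879 CPM with SB431542, against 1879 CPM in mock (-2.72 ± 0.0097). Acta1, skeletal muscle actin, went from 215, 211 and 212 CPM to 1.08, 0.662 and 0.922 CPM, against 5.01, 3.04 and 4.45 CPM in mock (-7.89 ± 0.25; adjusted p = 3.3e-48, edgeR test). The libraries of both treatments did not overlap in either gene, as in 80.15% of all genes tested. Reads of near-identical actins can be divided between their genes by counting, so the split among Acta1, Acta2, Actg2 and the cytoplasmic actins is less certain than their common fall. The pericyte and smooth muscle markers given above share Myh11 and Des with this list; their part in these changes was not tested.

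The calponin Cnn1 fell from 339 ± 3.72 to 4.96 ± 0.403 CPM (-6.09 ± 0.1) and Tagln (SM22) from 3091 ± 17 to 462 ± 5.15 CPM (-2.74 ± 0.011). The cytoplasmic actins Actb and Actg1 changed by -0.98 ± 0.007 and -1.42 ± 0.0076. Pxn (paxillin), Vcl (vinculin) and Myh11 (smooth muscle myosin) were the 3 members that rose with TMM scaling, by 0.43 ± 0.034, 0.19 ± 0.014 and 0.14 ± 0.024. Among 23 SRF cofactors, YAP and TEAD genes and targets, 20 fell and 3 rose (median -0.65). Ankrd1, a YAP target, fell from 215 ± 2.45 to 38.3 ± 1.79 CPM (-2.49 ± 0.04), the SRF coactivator Mrtfa from 164 ± 2.37 to 51.6 ± 1.97 CPM, and its relative Mrtfb rose from 36.8 ± 1.5 to 59 ± 1.97 CPM.

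Promoters of the contractile list were searched for the CArG box, the site of serum response factor (CC, 6 bases that are each A or T, then GG), in the window from 250 bases before to 50 after the RefSeq start site on either strand. It was found in 9 of the 37 list members with a window (24.3%), in 3.78% of the 794 genes lower by at least 2-fold, in 1.17% of the 1880 higher by at least 2-fold, and in 1.57% of all 11104 tested genes with a window. Stretches around the box (in capitals) are shown for 3 genes of the list that fell, from RefSeq on build GRCm38.p6 (mm10), 5′ to 3′ in the direction of the gene. A match is a description of the letters and no evidence of binding. Acta1 lies at chr8:123894824-123894863 on the minus strand, Actg1 at chr11:120348561-120348600 on the minus strand and Fhl2, a LIM-only coactivator, at chr1:43163968-43164007 on the minus strand. Where RefSeq gives a gene more than 1 start, a box in any window was counted, and the Fhl2 stretch lies at the inner of its 2 starts, within the span of the longer transcript.
Acta1: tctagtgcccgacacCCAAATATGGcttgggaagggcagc
Actg1: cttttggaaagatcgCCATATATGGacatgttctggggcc
Fhl2: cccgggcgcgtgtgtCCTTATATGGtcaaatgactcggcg
Beside these boxes, Acta1 changed by -7.89, Actg1 by -1.42 and Fhl2, with both transcripts summed, by -3.14 ± 0.053 (from 187 ± 6.37 to 21.3 ± 0.944 CPM). The Smad box in at least 2 copies (CAGAC or its complement GTCTG, either strand) was in 21.2% of windows of genes lower by at least 2-fold, 19% of those higher and 17.5% of all.

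Transcription factors of mesenchymal cells had no common direction (13 higher and 14 lower of 29, median -0.10, 0.16 with total-count scaling). Runx1, known from haematopoietic and myofibroblast programmes, fell from 159 ± 2.93 to 25.4 ± 0.695 CPM (-2.65 ± 0.048) and Runx2, the bone factor, from 52 ± 0.794 to 16 ± 1.52 CPM. Snai2, a zinc finger repressor, rose from 11.2 ± 0.493 to 32.7 ± 0.257 CPM (1.55 ± 0.082), and Meox2, a homeobox factor, from 1.76 ± 0.318 to 24.1 ± 0.865 CPM (3.76 ± 0.18).

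Secreted regulators of growth changed in both directions. In the Wnt list, 17 of 32 members rose and 11 fell. Sfrp2, a secreted Wnt binding protein, rose from 1.45, 0.887 and 1.35 CPM to 176, 171 and 174 CPM, against 85.6 CPM in mock (7.12 ± 0.22), and the ligand Wnt4 from 9.24 ± 0.509 to 71.4 ± 2.52 CPM. Wnt2 fell from 20.1 ± 0.608 to 2.97 ± 0.918 CPM and the receptor Fzd2 from 199 ± 3.23 to 35.1 ± 2.24 CPM. Igfbp5, a binding protein of insulin-like growth factors, rose from 4.09, 4.7 and 3.64 CPM to 253, 238 and 255 CPM, against 44.1 CPM in mock (5.92 ± 0.12), and Igfbp4 from 222 ± 4.22 to 1897 ± 9.88 CPM (3.09 ± 0.015). Pappa, the protease that cuts Igfbp4, fell from 133 ± 3.79 to 9.56 ± 0.768 CPM (-3.80 ± 0.076).

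Among growth factors and receptors, 16 of 37 rose and 16 fell (median -0.01, and 0.24 with total-count scaling). Vegfd, a lymphatic growth factor, rose from 36.8 ± 2.86 to 640.4 ± 7.98 CPM (4.12 ± 0.039) and Vegfa fell by 1.26 on the log2 scale. Bdnf, a neurotrophin, fell from 35 ± 2.05 to 1.21 ± 0.177 CPM (-4.84 ± 0.21). Of 35 prostaglandin, Nox and antioxidant genes, 19 rose, 8 by at least 2-fold, and 16 fell, 3 by at least 2-fold (median 0.35). Among those that fell, Ptgs2 (COX-2), the inducible prostaglandin synthase, went from 685, 691 and 694 CPM to 13.1, 14.6 and 15.6 CPM, against 57.3 CPM in mock (-5.58 ± 0.057). Nox4, a TGF-b-induced source of hydrogen peroxide, fell from 90.6 ± 3.23 to 12.7 ± 1.28 CPM (-2.83 ± 0.073). Retinoid genes were higher in 9 and lower in 9 of 20 members (median -0.02, and 0.23 with total-count scaling). The retinoic acid binding protein Crabp2 fell from 26.5 ± 1.36 CPM to 9 counts over the 3 SB431542 libraries. The synthetic enzyme Aldh1a1 rose from 34.9 ± 1.64 to 273 ± 2.26 CPM (2.96 ± 0.041).

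Progenitor markers were mostly higher, with 18 of 26 called higher and 4 lower, 12 and 2 of them by at least 2-fold (median 0.93). The lowest value on the list was -2.74, that of Wnt2, whose levels are given above. Cd34 (chromosome 1, 194938821 to 194961293, plus strand), a surface marker of adipose progenitors, stood at 16.2, 14 and 13.4 CPM with TGF-b1 and 223, 220.4 and 229 CPM with SB431542, against 139, 142 and 145 CPM in mock (3.95 ± 0.063). Dpp4, a marker of early interstitial progenitors, rose from 17.2, 14.8 and 13.8 CPM to 193, 188 and 177 CPM, against 128 CPM in mock (3.62 ± 0.066), and Ly6a (Sca-1) from 4.39 ± 0.699 to 299 ± 2.97 CPM (6.09 ± 0.11). Cd34 and Ly6a are also known from endothelial cells, whose markers rose as given above; their part was not tested. Pdgfra rose from 150.3 ± 3.77 to 464 ± 7.5 CPM (1.62 ± 0.021) while Pdgfrb changed by -0.35 ± 0.012.

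The factors that drive fat cell formation rose together with lipid genes. Of 37 adipogenic transcription factors, 31 rose, 15 by at least 2-fold, and 5 fell, 3 by at least 2-fold (median 0.65, lowest value -2.12). Pparg (chromosome 6, 115360951 to 115490402, plus strand), the nuclear receptor that directs the programme, stood at 14, 13.7 and 12.3 CPM with TGF-b1 and 91.4, 91.1 and 86.8 CPM with the inhibitor, above the 27.1, 25.8 and 25 CPM of mock (2.76 ± 0.07). Its partner Cebpa rose from 49.3, 46.6 and 47.6 CPM to 265, 269 and 268 CPM, against 133 CPM in mock (2.48 ± 0.037). Klf15 rose from 1.17 ± 0.327 to 24 ± 0.773 CPM (4.39 ± 0.23) and Cebpb, an early factor, from 186 ± 3.59 to 287 ± 6.91 CPM (0.63 ± 0.025). Zfp521, which restrains the programme, fell by 0.48 on the log2 scale, but with the largest transcript alone it stood at -0.20 and was not called (adjusted p = 0.231, edgeR test).

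Lipid uptake, storage and lipolysis genes were higher in 30 of 37 tested members, 23 by at least 2-fold, and lower in 3 (median 1.71). Lpl (chromosome 8, 68880555 to 68906933, plus strand), the lipase that frees fatty acids from lipoproteins, stood at 159.9, 153 and 161 CPM with TGF-b1 and 2779, 2815 and 2816 CPM with SB431542, against 1103, 1106 and 1126 CPM in mock (4.15 ± 0.017, 17.7-fold higher). Fabp4, a fatty acid carrier, rose from 46.6, 44.3 and 44.2 CPM to 647, 645 and 637 CPM, against 156 CPM in mock (3.84 ± 0.034). All SB431542 libraries lay above all mock libraries for both genes. Adrb3, the adipocyte beta-adrenergic receptor, rose from 0.742 ± 0.433 to 41.1 ± 0.689 CPM (5.83 ± 0.28). The lipid droplet protein Plin1 had 6 counts over the TGF-b1 libraries and reached 65.8 CPM, against 9.44 CPM in mock.

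Of 26 tested adipokines and secreted products of fat cells, 19 rose, 16 by at least 2-fold, and 5 fell (median 1.68). Lep (leptin) and Itln1, also on the list, were not in the table. Adipoq (adiponectin) had 5 counts over the 3 TGF-b1 libraries and stood at 68.1, 71.1 and 71.9 CPM with SB431542, against 4.75, 3.47 and 3.77 CPM in mock. Cfd (adipsin) had 2 counts and reached 101, 101 and 106 CPM, with 6.36 CPM in mock. Car3, a fat cell carbonic anhydrase, had 7 counts and reached 254 CPM. With so few counts below, no fold is given for these 3 genes. Agt (angiotensinogen) rose from 2.36 ± 0.271 to 195 ± 4.43 CPM (6.36 ± 0.15) and Hp (haptoglobin) from 2.89 ± 0.143 to 377 ± 2.93 CPM (7.02 ± 0.13). C1qtnf3, a secreted C1q/TNF protein, went the other way, from 85, 84.1 and 84.4 CPM to 5 counts over the 3 SB431542 libraries.

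Of 17 fatty acid synthesis genes, 8 rose, 4 by at least 2-fold, and 8 fell, none by 2-fold, with a median of -0.04. With total-count scaling 12 were higher and 4 lower, with a median of 0.21. Fasn (fatty acid synthase) fell from 574 ± 1.47 to 370.0 ± 4.14 CPM (-0.63 ± 0.016), and Scd1, a desaturase, rose from 402 ± 2.84 to 616 ± 2.3 CPM (0.61 ± 0.015). Of 23 insulin and glucose uptake genes, 15 rose, 7 by at least 2-fold, and 5 fell, 1 by at least 2-fold (median 0.46, lowest value -1.70). The glucose transporter of fat cells, Slc2a4 (Glut4), rose from 3.37 ± 0.577 to 16.9 ± 1.82 CPM (2.31 ± 0.15), and Cav1, the caveolar coat protein, from 325 ± 2.64 to 831 ± 4.27 CPM (1.35 ± 0.016). Ucp1 was not in the table, and among 22 tested thermogenic genes 16 rose and 4 fell. The creatine kinase Ckb and the creatine transporter Slc6a8 changed by -1.25 ± 0.03 and -1.09 ± 0.024.

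Interferon-stimulated genes were the pathway list with the highest median. All 52 tested members were called higher, 48 by at least 2-fold, with a median of 3.06, against 41.4% of all genes called higher. These genes encode antiviral effectors and are switched on by interferons. Ifit3 (chromosome 19, 34583529 to 34588983, plus strand) stood at 2.9, 2.22 and 3.71 CPM with TGF-b1 and 90.1, 91.7 and 92 CPM with SB431542, against 7.73, 7.29 and 7.02 CPM in mock (4.92 ± 0.14; adjusted p = 2.05e-40, edgeR test). Ifit1 rose from 2.13, 2.48 and 2.29 CPM to 67.7, 63.6 and 64.5 CPM, against 4.91 CPM in mock (4.82 ± 0.15). The SB431542 libraries lay above those of TGF-b1 and of mock for both genes. Ifit3 has a near-identical copy, Ifit3b, and their division of reads is uncertain.

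The guanylate-binding protein Gbp6 rose from 0.8 ± 0.36 to 49.7 ± 3.15 CPM (64.1-fold), the immunity-related GTPase Iigp1 from 1.39 ± 0.498 to 69.2 ± 1.7 CPM (5.67 ± 0.2), and Rtp4 from 1.13 ± 0.445 to 46.7 ± 2.03 CPM (5.32 ± 0.22). Among genes upstream, 16 of 18 receptors, kinases and sensors were higher, 4 by at least 2-fold, with a median of 0.67. The receptor subunit Ifnar1 changed by 0.28 ± 0.035 and the adaptor Sting1 by -0.11 ± 0.041 (0.15 with total-count scaling). No interferon gene on the list (Ifnb1, Ifng, Ifna2, Ifna4, Ifnl2 and Ifnl3) was in the table. Macrophages respond to interferon too, and the median of the macrophage markers was 1.19; their part in the rise was not tested.

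The window around the start sites was searched for the core of the interferon-stimulated response element, written here as GAAA, any 2 bases, GAAA, on either strand. It was in 22 of 36 list members with a window (61.1%), in 6.81% of the genes higher by at least 2-fold, 2.39% of those lower and 3.89% of all. The stretches of Ifit1 and Ifit3 are shown, since each holds the element 2 times as its complement (capitals), from RefSeq on build GRCm38.p6, 5′ to 3′ on the plus strand. Ifit1 lies at chr19:34640770-34640828 and Ifit3 at chr19:34583358-34583431.
Ifit1: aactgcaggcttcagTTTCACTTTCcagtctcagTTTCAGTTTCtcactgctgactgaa
Ifit3: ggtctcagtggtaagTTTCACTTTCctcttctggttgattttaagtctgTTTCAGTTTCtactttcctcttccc
This is a match of letters in 2 promoters of genes that rose by 4.82 and 4.92 on the log2 scale, and binding was not measured.

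Antigen presentation and complement genes rose in the same libraries. Of 27 MHC and antigen processing genes, 26 rose, 20 by at least 2-fold, and none fell (median 1.58). B2m, the light chain of class I molecules, went from 383, 379.9 and 386 CPM to 1161, 1138 and 1141 CPM, against 504 CPM in mock (1.58 ± 0.014), and the heavy chain H2-D1 from 162 ± 1.26 to 684 ± 4 CPM (2.08 ± 0.021). H2-Q4, H2-Q6 and H2-Q7 rose by 3.62 ± 0.076, 4.75 ± 0.23 and 3.99 ± 0.21, but class I genes are so alike that the division of reads among them is uncertain. Psmb9, a subunit of the immunoproteasome, stood at 11.2 ± 0.982 CPM with the inhibitor and had 8 counts over the TGF-b1 libraries.

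Complement genes, many of them made by fibroblasts, were higher in 20 of 23 tested members and lower in 1 (median 2.27). C3 (chromosome 17, 57203967 to 57228137, minus strand), the central component, stood at 47, 45.8 and 57.3 CPM with TGF-b1 and 1694, 1699 and 1714 CPM with SB431542, against 704, 695 and 682 CPM in mock (5.07 ± 0.035, 33.6-fold higher). C4b rose from 8.16 ± 0.593 to 258 ± 0.522 CPM (4.97 ± 0.078) and Serping1, the C1 inhibitor, from 167 ± 4.51 to 699.5 ± 8.32 CPM (2.06 ± 0.021). The only member that fell was C1qa, a product of macrophages, from 42.2 ± 1.61 to 24.9 ± 1.09 CPM (-0.77 ± 0.058).

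Chemokines and receptors included 22 higher and 6 lower members of 29. Ccl2, which attracts monocytes, rose from 45.3 ± 1.34 to 289.8 ± 5.37 CPM (2.68 ± 0.037) and Ccl9, a macrophage chemokine, from 6.68 ± 0.581 to 128 ± 1.55 CPM (4.24 ± 0.09). Cxcl14 fell from 85.4 ± 4.01 to 9.34 ± 1.1 CPM (-3.19 ± 0.081). Among interleukins, Il11, a TGF-b-induced cytokine of fibroblasts, fell from 13.1, 14.1 and 11.5 CPM to 0.433, 0.589 and 0.692 CPM, against 0.907 CPM in mock (-4.47 ± 0.31), and Lif, of the same family, from 195 ± 3.09 to 18.5 ± 0.254 CPM (-3.40 ± 0.055). The acute phase gene Saa3 rose from 1.72 ± 0.288 to 131 ± 1.45 CPM (6.23 ± 0.17) and Il1rn, the interleukin 1 receptor antagonist, from 3.14 ± 0.627 to 98.4 ± 3.05 CPM (4.94 ± 0.14). Macrophage markers were higher beside these genes, from 36 to 115 CPM for Cd68 and from 6.72 to 96.7 CPM for Mrc1, and lower for C1qa.

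**Figure D5:**
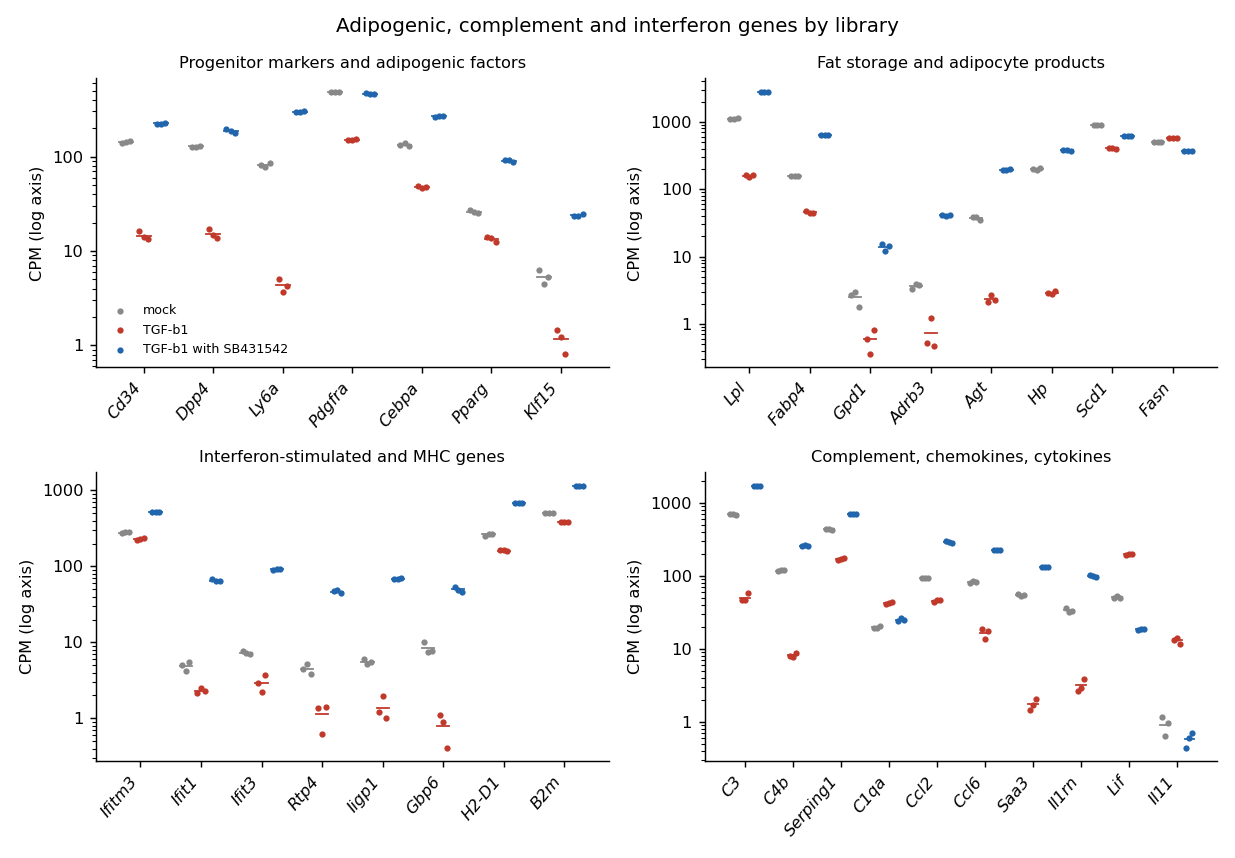
CPM (log axis) of progenitor and adipogenic genes, fat cell genes, interferon-stimulated and MHC genes, and complement and cytokine genes in each library of mock (grey), TGF-b1 (red) and TGF-b1 with SB431542 (blue), with a line at the mean. SB431542 libraries of Lpl, Fabp4, Ifit1, Ifit3 and C3 lie above both other groups, whereas Lif and Il11 are lower than with TGF-b1.

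Genes of amino acid synthesis and of the secretory pathway were mostly lower. Of 36 serine, one-carbon, proline and ATF4 genes, 26 fell, 18 by at least 2-fold, and 9 rose (median -0.96). Aldh1l2, a mitochondrial folate enzyme, fell from 223 ± 4.34 to 18.9 ± 2.09 CPM (-3.56 ± 0.057) and Slc7a3, a carrier of cationic amino acids, from 17.9 ± 1.34 to 0.823 ± 0.355 CPM (-4.44 ± 0.26). Atf3, a stress factor on the same list, rose from 4.63 ± 0.582 to 29.1 ± 2.71 CPM (2.65 ± 0.12). In the endoplasmic reticulum list 31 of 35 members fell (median -0.62), among them the chaperone Hsp90b1, from 2234 ± 16.8 to 1202 ± 10.5 CPM, and Creb3l2, a membrane-bound factor of secretory cells, from 188 ± 2.37 to 37.8 ± 1.43 CPM (-2.31 ± 0.041).

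Among 31 genes that break down fatty acids, 22 rose, 4 by at least 2-fold, and 5 fell (median 0.33), against 28 and 2 with total-count scaling. Acaa2, a mitochondrial thiolase, rose from 28.9 ± 2.03 to 73.1 ± 3.59 CPM (1.33 ± 0.054). Acot2, a mitochondrial thioesterase, fell from 23.4 ± 1.6 to 8.54 ± 0.354 CPM (-1.45 ± 0.096).

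Lysosomal genes were higher in 29 of 35 members (median 0.68). Ctsb (cathepsin B) rose from 1159.6 ± 10.4 to 2705 ± 3.12 CPM (1.22 ± 0.0098) and Psap (prosaposin) from 1471 ± 29.9 to 3033 ± 29 CPM (1.04 ± 0.01). Macrophages are rich in both, and the part of the higher macrophage markers was not tested. Of 27 cholesterol synthesis and uptake genes, 12 were higher and 12 lower (median -0.02), and with total-count scaling 16 and 7 (median 0.24). Apoe and the exporter Abca1 rose from 132 ± 1.61 to 1280.4 ± 6.98 CPM (3.27 ± 0.021) and from 47.4 ± 1.34 to 228 ± 6.16 CPM (2.26 ± 0.037).

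The respiratory chain depended on the scaling. With TMM, 24 of 36 members were called lower and 7 higher (median -0.15), and with total-count scaling 4 were lower and 23 higher (median 0.11). No member changed by 2-fold. In the glycolysis and hypoxia list the median was -0.26, and 0.00 with total counts. The hypoxia factor Epas1 (HIF-2 alpha), known from endothelial cells, rose from 71.8 ± 5.63 to 614 ± 4.54 CPM (3.10 ± 0.03) and the peptide Adm from 29.7 ± 0.504 to 271 ± 1.37 CPM (3.19 ± 0.043), beside higher endothelial markers.

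Cell cycle genes changed little on the whole, with 17 of 39 called higher, 20 lower and 1 and 2 past 2-fold (median -0.10, and 0.16 with total-count scaling). Ccnd1 (cyclin D1), the higher of these, stood at 18.2, 17.6 and 15 CPM with TGF-b1 and 156, 151 and 157 CPM with SB431542, against 50.1 CPM in mock (3.20 ± 0.062). The inhibitors Cdkn2b (p15), a known TGF-b target, and Cdkn2a were those lower by at least 2-fold, from 38.2 ± 0.543 to 14.3 ± 1.6 CPM (-1.41 ± 0.074) and from 12.7 ± 0.505 to 5.41 ± 0.0613 CPM (-1.22 ± 0.12).

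The largest changes were also ranked outside the lists, with unnamed gene models (such as Gm, Rik and LOC symbols) passed over. Only called genes with libraries that did not overlap, reaching 10 CPM in 1 group and 10 counts in the other, were ranked. The 12 that fell most were Acta1, Col11a1, Mfap4, Ncam1, Megf10, Cthrc1, Cilp, Cnn1, Tmem59l, Erfe, Ptgs2 and Has2. Ncam1, a neural cell adhesion molecule, fell from 423, 426 and 421 CPM to 2.96, 3.24 and 3.38 CPM, against 94.8 CPM in mock (-7.05 ± 0.12). Cthrc1, a collagen triple helix repeat protein of activated fibroblasts, fell from 110.1 ± 2.36 to 0.937 ± 0.0838 CPM (-6.86 ± 0.23), and the hyaluronan synthase Has2 from 149.8 ± 1.18 to 3.18 ± 0.227 CPM (-5.55 ± 0.13). The 12 that rose most under the same rule were Enpp2, Sfrp2, Hp, Ly6c1, Scara5, Agt, Megf6, Cyp2s1, Cldn10, Saa3, Ggt5 and Ppl. Enpp2 (autotaxin), a secreted lysophospholipase D of fat tissue, rose from 0.682, 0.532 and 0.674 CPM to 166, 159.7 and 159 CPM, against 13.2 CPM in mock (7.97 ± 0.3). Scara5, a ferritin receptor, rose from 0.801 ± 0.239 to 70.4 ± 3.35 CPM (6.45 ± 0.26) and Ggt5, a glutamyl transferase, from 0.898 ± 0.279 to 66.5 ± 1.89 CPM (6.15 ± 0.24).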

How the data were processed

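Poly(A) RNA of 18 libraries was sequenced by the authors, and fastp, STAR, featureCounts and genome build mm10 are named per the submitters' processing notes. Their versions, the strandedness and how reads were shared among transcripts are not stated there. The deposited tables hold expected counts (estimated counts that need not be whole) per RefSeq transcript, not scaled to library size. Of the undifferentiated table, 32709 transcripts of 17001 symbols in 12 libraries were summed per gene symbol and rounded (28.8% of transcript values and 77% of gene sums were whole within 0.01). The 10 symbols that lie at several loci were summed like the others. Overlapping and antisense genes cannot be separated without the strand.

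The 12 libraries were fitted together with edgeR 4.0.16 in R 4.3.3. They form 4 groups of 3: CD mock, CD with TGF-b1, CD with TGF-b1 and SB431542, and HFD_mock (high-fat diet). The gene filter (filterByExpr), TMM scaling and the estimate of spread used all 12. The quasi-likelihood test was followed by Benjamini-Hochberg adjustment over 14078 genes. A call needs an adjusted p under 0.05. For 3780 genes the estimated dispersion was under 1e-04, so standard errors were taken with that value as a floor, and no p-value is given for highly expressed single genes. CPM values use the TMM factors. Alternatives included DESeq2 1.42.0, limma 3.58.1 (voom), other scalings and filters, a replicate block, the 6 libraries alone, each library left out and the largest transcript only. The fit was tested on simulated data. Tables and figures were made with Python 3.11.15, pandas 2.3.3, numpy 2.4.6 and matplotlib 3.10.9.

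The comparison, the 42 gene lists and 7 marker lists, the motifs and the tests were chosen with earlier results of these data known. Named genes were 32 check genes, for each list the 4 called members with the largest change, the 2 with the highest CPM and the 2 with the largest change against most members (10 CPM or more in 1 group, no overlap between libraries), the 12 genes that rose and the 12 that fell most (with at least 10 counts in the lower group), and all members of the ligand, Smad, activin and BMP lists. Unnamed gene models were passed over among the genes that rose and fell most. Not every gene so taken is printed.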

Additional observations from a re-analysis of the deposited data

How the results depend on the processing

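Direction and call of the counts of genes were recomputed under 17 alternatives, 1 of them (a dispersion of at least 1e-04) added with earlier results of these data known. Total-count scaling gave 3446 genes called lower, and a minimum of 10 CPM in 3 libraries left 10458 genes, of which 1439 were higher and 657 lower by at least 2-fold. Leaving out 1 of the 6 libraries gave 5625 to 5799 genes called higher and 5129 to 5358 lower, and 2560 to 2609 and 1086 to 1114 past 2-fold. The largest transcript alone gave 4792 higher and 4433 lower. With total-count scaling, Col4a1 changed by 0.12, Ltbp1 by 0.024 (no longer called), Smad4 by 0.16 and Sting1 by 0.15. Smad2 at 0.31, Tgif2 at 0.19 and Zfyve9 at 0.21 were now called higher. The medians became 0.08 for Smads, 0.16 for mesenchymal transcription factors, 0.11 for the respiratory chain and 0.002 for glycolysis. With the 10 CPM minimum the median of the activin list was -0.22 and that of the mesenchymal factors 0.51, with fewer members tested, and Smad2 was called at 0.11, as it was with upper-quartile scaling at 0.096. In both of these settings Smad4 and Sting1 were not called. With the largest transcript only, Ltbp1 changed by 0.60, and Acvrl1 (0.009), Fst (0.045), Smad4 (-0.07), Smad5 (0.18), Sting1 (-0.07) and Zfp521 (-0.20) were no longer called. Medians within 0.1 of 0 were given no direction. Of 3652 values of 215 named genes, 3630 kept direction and call. Without TGF-b1 replicate 3 or SB431542 replicate 1, Sting1 was no longer called, at -0.09 and -0.05. The labels give both groups numbers 1 to 3, but same-numbered libraries did not deviate together (correlations of -0.007, -0.007 and 0.005), no library correlated best with its own number, and the fit with the number as a replicate block called 5819 genes higher and 5371 lower. Genes with few counts in 1 group have changes of uncertain size.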
